A study of Danio rerio with 246 samples.

Results

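Single cells of 2 reporter lines were compared gene by gene: 38 cells of lck_GFP against 48 cells of rag2_GFP, together 86 of the 246 cells that the study sorted from 6 fluorescent zebrafish lines. Members were chosen by the line named in each cell's title, and no measured value was used to choose them. By its own labels every cell came from whole kidney marrow, where adult zebrafish form their blood, though the protocol text common to all samples names marrow or thymus. Each cell was sorted by fluorescence into its own well before its polyadenylated RNA was amplified with a Smart-seq2 protocol. The names stand for green fluorescent protein (GFP) reporters of the genes lck and rag2. The labels give no age, strain, full genotype or number of animals for either line. Both lines shared plate 2, with lck_GFP in well rows E to H and rag2_GFP in rows A to D, so line and plate position cannot be told apart. Without named animals each line is 1 sample, so no p-value was made from cells, and all intervals cover counting error only.

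T cells and B cells are the lymphocytes that carry rearranged antigen receptors. T cells read peptides that other cells present on major histocompatibility complex (MHC) molecules, and the kinase Lck starts signalling from their receptor. B cells carry membrane immunoglobulin, signal through CD79 chains, and present antigen on MHC class II. In zebrafish, T cells mature in the thymus and B cells form in the kidney marrow, where a rag2 reporter is known to mark B cells.

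Sequencing depth was close between the lines and the number of detected genes was not. Assigned reads per cell had a median of 667513 (48422 to 1463559) in lck_GFP and 704023 (94468 to 1828641) in rag2_GFP. Detected genes per cell had a median of 925 (623 to 4719) in lck_GFP and 782 (526 to 2076) in rag2_GFP. When every cell was thinned to 200000 reads, which left out 6 lck_GFP and 7 rag2_GFP cells, these medians were 822.5 and 686 genes. Median uniquely mapped read pairs were 63.6% in lck_GFP and 65.2% in rag2_GFP, and median PCR duplicates were 16.1% and 13.7%. Summed reads were 23028484 in lck_GFP and 31699427 in rag2_GFP.

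The lineage named by each reporter was compared with marker genes. A cell held a lineage if at least 3 of its markers reached 10 CPM (read counts of a gene scaled to a total of 1000000) in that cell. The marker lists were chosen with earlier results of these data known, so the counts are no independent check of lineage. T cell markers were held by 38 of 38 lck_GFP cells (95% interval, exact Clopper-Pearson, 90.7 to 100%) and by 1 of 48 rag2_GFP cells (2.08%, 0.0527 to 11.1%). B cell markers were held by 0 of 38 lck_GFP cells (exact interval 0 to 9.25%, and up to 7.89% by a limit of 3 cells), and by 45 of 48 rag2_GFP cells (93.8%, 82.8 to 98.7%). No cell of either line held both. Markers of natural killer (NK) and cytotoxic cells were held by 8 lck_GFP cells and 0 rag2_GFP cells, those of neutrophils by 2 lck_GFP cells and 0 rag2_GFP cells, and those of monocytes and macrophages by 0 lck_GFP cells and 3 rag2_GFP cells. The 3 rag2_GFP cells with monocyte and macrophage markers, replicates 11, 13 and 42, also held 7, 6 and 5 B cell markers. Erythroid markers and thrombocyte markers were held by 0 lck_GFP cells and 1 rag2_GFP cell each, and both of these rag2_GFP cells also held B cell markers.

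A few cells stood apart in their lymphocyte markers or in depth. In rag2_GFP, replicate 1 held 4 T cell markers and 0 B cell markers, and 13 of the 79 genes described below as higher in lck_GFP reached 10 CPM in it. All reads of lck in rag2_GFP came from that cell, where lck was at 2762 CPM. Replicates 34 and 38 of rag2_GFP held fewer than 3 markers of either lymphocyte, at 1951 and 1616 detected genes, and they had 342 and 1669 CPM of rag2. In lck_GFP, replicate 38 had 4719 detected genes, 5 T cell markers and 1 B cell marker. The counts of genes are therefore given with and without these cells.

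**Figure D1:**
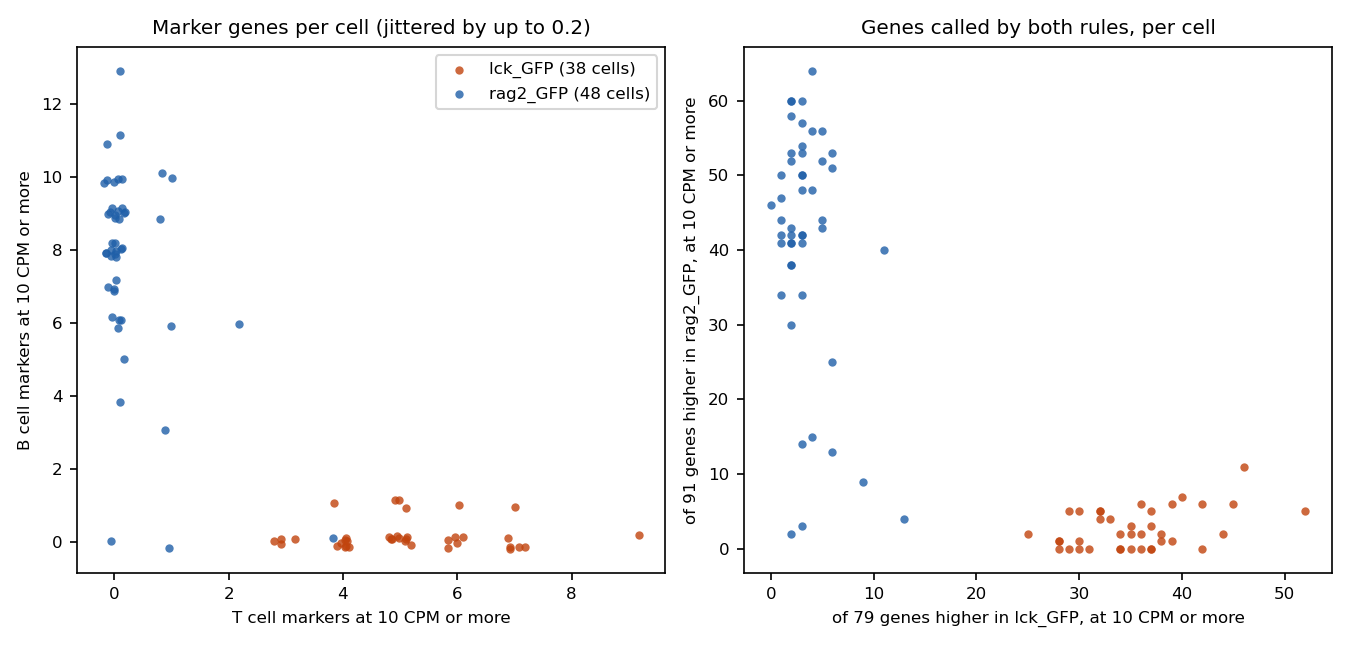
The left panel gives, for each cell, the number of T cell markers (x axis) and B cell markers (y axis) at 10 CPM or more. The right panel gives the number of genes higher in lck_GFP (of 79, x axis) and higher in rag2_GFP (of 91, y axis) at 10 CPM or more. Red points are the 38 lck_GFP cells and blue points the 48 rag2_GFP cells. The lck_GFP cells hold 3 to 9 T cell markers and at most 1 B cell marker, and 45 rag2_GFP cells hold at least 3 B cell markers.

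Across the genome, summed levels and shares of cells gave very different counts. A gene counted as measured when its summed CPM, from the reads of all cells of a line, was at least 10 in either line, which held for 8829 of 21876 genes. By summed CPM, 2074 measured genes (23.5%) were at least 4-fold higher in lck_GFP and 3319 (37.6%) at least 4-fold lower, 61.1% in all, where the fold is of CPM + 1. By the share of cells at 10 CPM or more, 127 genes (1.44%) were at least 25 percentage points higher in lck_GFP and 102 (1.16%) at least 25 points lower, 2.59% in all. Both measures together, in the same direction, put 79 genes (0.895%) higher in lck_GFP and 91 (1.03%) lower, 1.93% in all. The smallest difference inside the share limit was 26.3 points on the lck_GFP side and -25 points on the rag2_GFP side, and the largest outside it were 24.8 and -24.9 points.

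Most of the 4-fold differences came from reads of very few cells. The median gene at least 4-fold higher in lck_GFP reached 10 CPM in 2 of its cells, and 1623 such genes (78.3%) had over 50% of their lck_GFP reads in 1 cell. The median gene at least 4-fold higher in rag2_GFP likewise reached 10 CPM in 2 cells, and 2723 (82.0%) had over 50% of their rag2_GFP reads in 1 cell. Among the genes called by both measures, 1 of 79 on the lck_GFP side and 0 of 91 on the rag2_GFP side did so. The median log2 ratio of all 8829 measured genes was -0.58. Without the 3 rag2_GFP cells that held fewer than 3 B cell markers, 7906 genes were measured. Of these, 2251 were at least 4-fold higher in lck_GFP and 2428 at least 4-fold lower. Over the first 8829 genes the median was then 0, which is also the value of a gene left with no read in either line. By both measures, 80 and 100 genes were called without these 3 cells, and 81 and 92 without replicate 38 of lck_GFP, higher and lower in lck_GFP in that order.

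**Figure D2:**
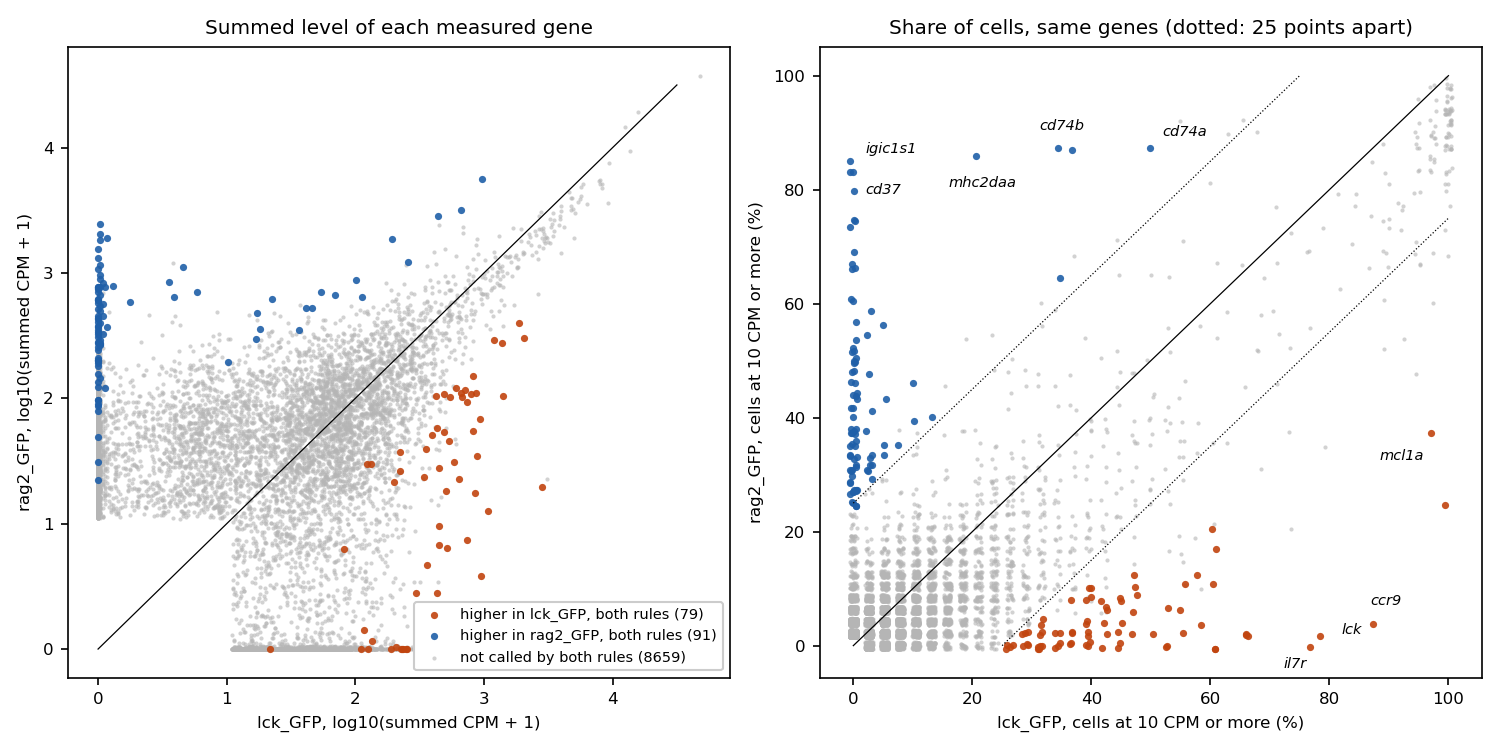
Each point is 1 of the 8829 measured genes. The left panel plots log10(summed CPM + 1) in lck_GFP (x axis) against rag2_GFP (y axis), and the right panel plots the percent of cells at 10 CPM or more, with a small jitter. Red marks the 79 genes higher in lck_GFP and blue the 91 genes higher in rag2_GFP by both measures. Many grey points lie far from the diagonal on the left and near the origin on the right, where few cells of either line reach 10 CPM.

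Every lck_GFP cell and most rag2_GFP cells carried many genes of their line's set. Of the 79 genes higher in lck_GFP, a median of 35 (25 to 52) reached 10 CPM in an lck_GFP cell and a median of 3 (0 to 13) in a rag2_GFP cell. Of the 91 genes higher in rag2_GFP, a median of 2 (0 to 11) reached 10 CPM in an lck_GFP cell and a median of 43.5 (2 to 64) in a rag2_GFP cell. The rag2_GFP replicates 1, 34 and 38 carried only 4, 2 and 3 of these, within the range of the lck_GFP cells. Since these genes were picked for their difference in the same cells, the counts describe how the sets are spread and support nothing more. The median gene was at 10 CPM in 39.5% of lck_GFP cells on the lck_GFP side and in 39.6% of rag2_GFP cells on the rag2_GFP side, and 22 and 30 genes were in at least 50% of the cells of their line. Clone names, or no symbol, stood for 17 of the 79 and 26 of the 91 genes.

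The counts of genes absent from the opposite line differed between the sets. On the lck_GFP side, 23 of 79 genes had no read in any rag2_GFP cell, and 28 stayed under 10 CPM in all 48 of them. On the rag2_GFP side, 44 of 91 genes had no read in any lck_GFP cell, and 66 stayed under 10 CPM in all 38. The rag2_GFP line has more reads in all and more cells. The genes of each set were also picked for their lower level and share in the opposite line. The same counts over all measured genes were not made, so the part of these points in the difference was not tested. Of the 79 genes, 36 stayed under 10 CPM in all 45 rag2_GFP cells with B cell markers, and 43 reached it in some of these cells.

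Receptors and adaptors of T cells led the lck_GFP side. The chemokine receptor gene ccr9 (ENSDARG00000055186), which guides T cells to the thymus and gut, had a median of 2513 CPM per cell (0 to 8371) in lck_GFP and 0 CPM (0 to 1916) in rag2_GFP. At 10 CPM or more were 33 of 38 lck_GFP cells (86.8%, exact interval 71.9 to 95.6%) and 2 of 48 rag2_GFP cells (4.17%, 0.509 to 14.3%). Its summed level was 2817 CPM (exact Poisson 95% interval 2796 to 2839) in lck_GFP and 18.8 CPM (17.3 to 20.4) in rag2_GFP, a 150-fold ratio. In rag2_GFP 86.6% of its reads came from 1 cell, and reads are not independent molecules, so these intervals are too narrow. The cytokine receptor gene il7r, needed for lymphocyte survival, had a median of 1008 CPM per cell (0 to 5858) in 38 lck_GFP cells and no read in 48 rag2_GFP cells. It reached 10 CPM in 29 lck_GFP cells (76.3%, 59.8 to 88.6%), and in 0 of 48 rag2_GFP cells (0 to 7.40%, and up to 6.25% by a limit of 3 cells). Its summed level was at least 14443-fold higher in lck_GFP against a floor of 3 reads in rag2_GFP. The ranges overlap for both genes because some lck_GFP cells had none of their reads, and for ccr9 also because 2 rag2_GFP cells reached 10 CPM.

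The kinase gene lck itself had a median of 378 CPM per cell (0 to 2758) in lck_GFP and 0 CPM (0 to 2762) in rag2_GFP, in 30 and 1 cells at 10 CPM or more. Thinning to equal reads gave 81.2% of lck_GFP cells and 0% of 41 rag2_GFP cells for lck, and 87.5% and 2.44% for ccr9. The 1 rag2_GFP cell with lck had 191139 reads and was left out by the thinning, so the 0% for lck reflects its absence. The adaptor gene sash3, which acts in lymphocyte signalling, reached 10 CPM in 25 lck_GFP cells and 1 rag2_GFP cell, as did runx3, a transcription factor gene of T and NK cells, and cd99, a surface glycoprotein gene. A further chemokine receptor gene, ccr7, which guides lymphocytes to lymphoid tissue in mammals, was at 738 CPM in lck_GFP, in 19 cells, and at 6.37 CPM in rag2_GFP, in 1 cell.

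Genes of survival, kinases, actin and protease inhibition were on the lck_GFP side too. The survival gene mcl1a, a relative of bcl2, had a median of 1775 CPM per cell (0 to 5712) in lck_GFP and 0 CPM (0 to 3670) in rag2_GFP. It reached 10 CPM in 37 lck_GFP cells and 18 rag2_GFP cells, at 1874 and 395 CPM summed, a log2 ratio of 2.24. Its paralogue mcl1b had 0.0434 CPM in lck_GFP and 23.6 CPM in rag2_GFP, in 0 and 3 cells. The kinase gene stk17al was in 22 lck_GFP cells and 2 rag2_GFP cells, and the kinase gene rps6ka1 in 23 and 5. The actin-severing family gene scinlb was in 21 lck_GFP cells and 3 rag2_GFP cells, capg, a further actin-capping gene, in 15 and 0, and the protease inhibitor gene spint1a in 20 and 0. These shares covered between 39.5 and 97.4% of lck_GFP cells. In lines on other plates, mcl1a was at 567 CPM (Runx123_GFP), 325 CPM (cd41_GFPlow), 491 CPM (mpx_EGFP) and 1232 CPM (lck_GFP_rag1). The gene capg was at 771 CPM in lck_GFP, 78.6 CPM in Runx123_GFP, 283 CPM in cd41_GFPlow, 1290 CPM in mpx_EGFP and 1267 CPM in lck_GFP_rag1.

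**Figure D3:**
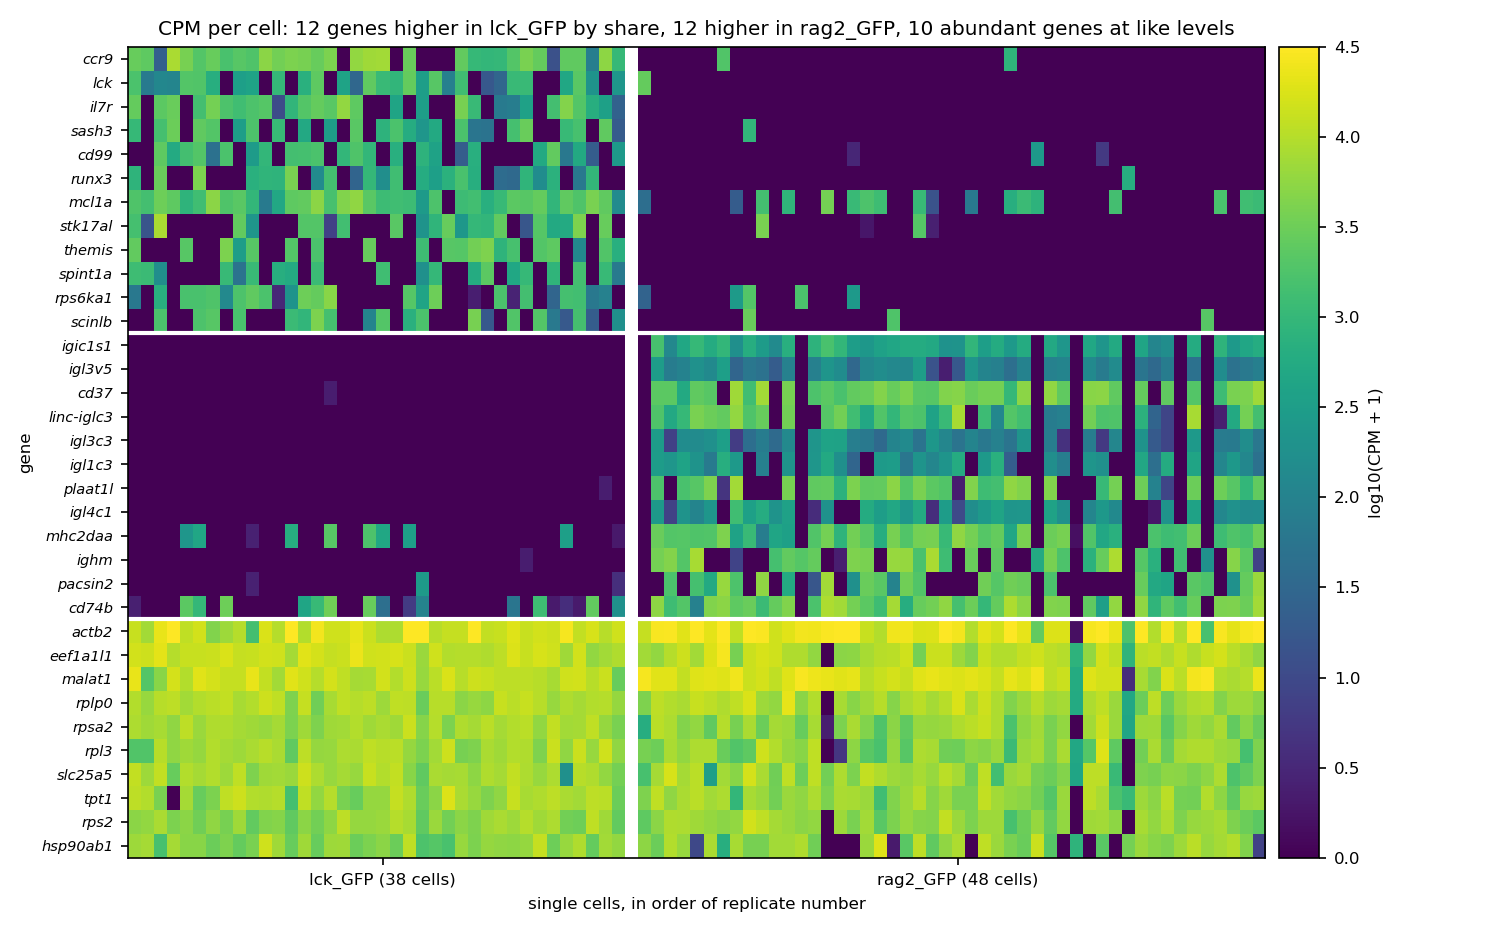
Rows are the 12 named genes with the largest share difference on the lck_GFP side (top), the 12 on the rag2_GFP side (middle) and 10 abundant genes at like levels (bottom). Columns are the 38 lck_GFP cells (left) and the 48 rag2_GFP cells (right), and colour is log10(CPM + 1). The middle block is dark in lck_GFP except for mhc2daa, cd74b and scattered single cells, and 1 lck signal stands in the first rag2_GFP column.

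Immunoglobulin and antigen presentation genes led the rag2_GFP side. The light chain gene igic1s1 had no read in 38 lck_GFP cells and a median of 452 CPM per cell (0 to 1612) in rag2_GFP, where 41 of 48 cells reached 10 CPM (85.4%, 72.2 to 93.9%). The 41 immunoglobulin genes matched by name summed to 0.0434 CPM in lck_GFP and 3526 CPM in rag2_GFP. All 19 measured ones passed the filter of 10 CPM through rag2_GFP alone, so being at least 4-fold lower in lck_GFP was fixed beforehand. By both measures 7 of the 19 were lower, a count that the share limit alone decided. The 1.03% of all measured genes called lower is no like background for it, because fold and direction were fixed here. Light chain genes have near-identical copies that can take each other's reads, so single ones are uncertain. The heavy chain gene ighm had 1 read in lck_GFP and a median of 1293 CPM per cell (0 to 8813) in rag2_GFP, in 29 cells. The tetraspanin gene cd37, which B cells carry on their surface, had 1 read in lck_GFP, and its median was 2491 CPM per cell (0 to 7534) in rag2_GFP, in 38 cells.

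Beside these stood genes of lipid and membrane handling and of the cell cortex. The phospholipase and acyltransferase family gene plaat1l was in 0 lck_GFP cells and 32 rag2_GFP cells, at 0.0434 and 1835 CPM summed. The membrane-bending gene pacsin2 was in 1 lck_GFP cell and 28 rag2_GFP cells, and ank3, which ties membrane proteins to spectrin, in 0 and 22. The quiescence factor gene klf2a, which in mammals also keeps naive T cells in circulation, had no read in lck_GFP and was at 1076 CPM in rag2_GFP, in 23 cells. Its paralogue klf2b had 58.9 CPM in lck_GFP and 187 CPM in rag2_GFP, in 1 and 6 cells. The summed level of klf2a was at least 8263-fold lower in lck_GFP against a floor of 3 reads there.

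Antigen receptor signalling genes were divided between the lines. Of 44 measured list members, 7 were higher in lck_GFP by both measures and 3 lower, beside 0.895 and 1.03% of all measured genes. Of the 8829 measured genes, 5356 reached 10 CPM in at most 2 lck_GFP cells and 5611 in at most 2 rag2_GFP cells. Such genes could not be called higher in that line by share. The shares of all genes are thus no like background for genes in more cells, here and in the lists below. These lists were also chosen with earlier results known, and enrichment was not tested. The list's median log2 ratio was 0.29 beside -0.58 for all measured genes. Higher were lck, themis, zap70, itk, lat, plcg1 and sash3, which act at or just below the T cell receptor. The kinase gene zap70 was in 17 lck_GFP cells and 1 rag2_GFP cell, the replicate with T cell markers, at 883 and 33.6 CPM summed. The kinase gene itk and the adaptor gene lat had no read in rag2_GFP, and were in 13 and 12 lck_GFP cells. Lower in lck_GFP were the B cell adaptor gene blnk in 0 lck_GFP and 19 rag2_GFP cells, the kinase gene btk in 0 and 14, and the exchange factor gene rasgrp2 in 1 and 16. The kinase gene syk, which serves the B cell receptor, was in 4 lck_GFP cells and 18 rag2_GFP cells, with a log2 ratio of -1.01 that did not reach 4-fold.

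Transcription factors showed the same division. By both measures, 0.895% of all measured genes were higher in lck_GFP and 1.03% lower. Of 52 measured members of the lymphoid factor list, 4 were higher in lck_GFP by both measures and 7 lower. The list's median was -0.84 (log2). Higher were runx3, bcl11ba, tcf7 and nfatc3, of which bcl11b and tcf7 set T cell identity in mammals. At equal reads nfatc3 was at a log2 ratio of 1.99 and irf8, among the lower ones, at a share difference of -24.4 points, and neither was called. The factor gene bcl11ba was in 15 lck_GFP cells and 1 rag2_GFP cell, at 427 and 1.80 CPM summed, and tcf7 in 15 and 1, at 115 and 0.410 CPM. Lower were the B cell identity genes ebf1 and pax5, in 21 and 15 rag2_GFP cells and without a read in lck_GFP, and bcl11a, spi1, irf8, lmo2 and klf2a. The factor gene spi1, which serves B cells and myeloid cells in mammals, was in 0 lck_GFP cells and 18 rag2_GFP cells, all 18 with at least 3 B cell markers. The pair bcl11ba and bcl11a lay on opposite sides, with bcl11a at 0.13 CPM in lck_GFP and 119 CPM in rag2_GFP. The factor gene ikzf1, shared by lymphocytes, was in 13 lck_GFP cells and 12 rag2_GFP cells, at 318 and 461 CPM.

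Several genes of the phagocyte oxidase were on the rag2_GFP side. This enzyme makes superoxide, is best known from neutrophils and macrophages, and is also present in mammalian B cells. Of 26 measured members of the oxidase and lysosome list, 0 were higher in lck_GFP by both measures and 5 lower. Over all measured genes, 0.895% were higher and 1.03% lower. The lower members included ncf1, cyba and cybb, which encode oxidase subunits, and mpeg1 (ENSDARG00000055290), a pore-forming protein gene of macrophages. The cytosolic subunit gene ncf1 had a median of 0 CPM per cell (0 to 20.7) in lck_GFP and 638 CPM (0 to 14556) in rag2_GFP, with 1 lck_GFP cell (2.63%, 0.0666 to 13.8%) and 26 rag2_GFP cells (54.2%, 39.2 to 68.6%) at 10 CPM or more. The membrane subunit gene cyba had a median of 0 CPM per cell (0 to 6.68) in lck_GFP and 165 CPM (0 to 3471) in rag2_GFP, in 0 and 25 cells. The catalytic subunit gene cybb was in 1 lck_GFP cell and 15 rag2_GFP cells, and mpeg1 in 0 and 17. A further cytosolic subunit gene, ncf4, was in 0 lck_GFP cells and 3 rag2_GFP cells, at 0.0434 and 61.0 CPM summed, and was not called by both measures.

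The cells with these genes held B cell markers, as did 45 of all 48 rag2_GFP cells (93.8%). All 26 rag2_GFP cells with ncf1, all 25 with cyba, all 15 with cybb and all 17 with mpeg1 held at least 3 B cell markers. None held 3 neutrophil markers, but neither did any of the 48 rag2_GFP cells, so this was fixed beforehand. Among the cells with cyba, 2 also held 3 markers of monocytes and macrophages. The markers of monocytes and macrophages, a list that holds mpeg1 itself, summed to 109 CPM in lck_GFP and 1059 CPM in rag2_GFP. Of 6 measured ones 0 were at least 4-fold higher in lck_GFP and 5 lower. In any lck_GFP cell 1 marker reached 10 CPM, against 7 in any rag2_GFP cell. Measured markers under 10 CPM in all lck_GFP cells passed the filter of 10 CPM through rag2_GFP alone. Their direction was fixed beforehand, so the 23.5 and 37.6% of all measured genes are no like background for them. Of that list cd68 was in 7 lck_GFP cells and 9 rag2_GFP cells, and csf1rb in 0 and 4. The defining macrophage genes marco, c1qa, c1qb, c1qc and csf1ra had no read in either line, and the part of such cells in the rag2_GFP levels was not tested. The lysozyme gene lyz, of neutrophils, was at 0.261 CPM in lck_GFP with no read in rag2_GFP. Of the 26 oxidase and lysosome genes, 2 were at least 4-fold higher in lck_GFP and 13 lower, beside 23.5 and 37.6% of all genes. The list's median was -1.45 (log2) beside -0.58 for all measured genes, and its median share difference was -0.713 points. The tetraspanin gene cd63, found in lysosomes, was in 21 lck_GFP cells and 8 rag2_GFP cells, with a log2 ratio of 1.17.

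**Figure D4:**
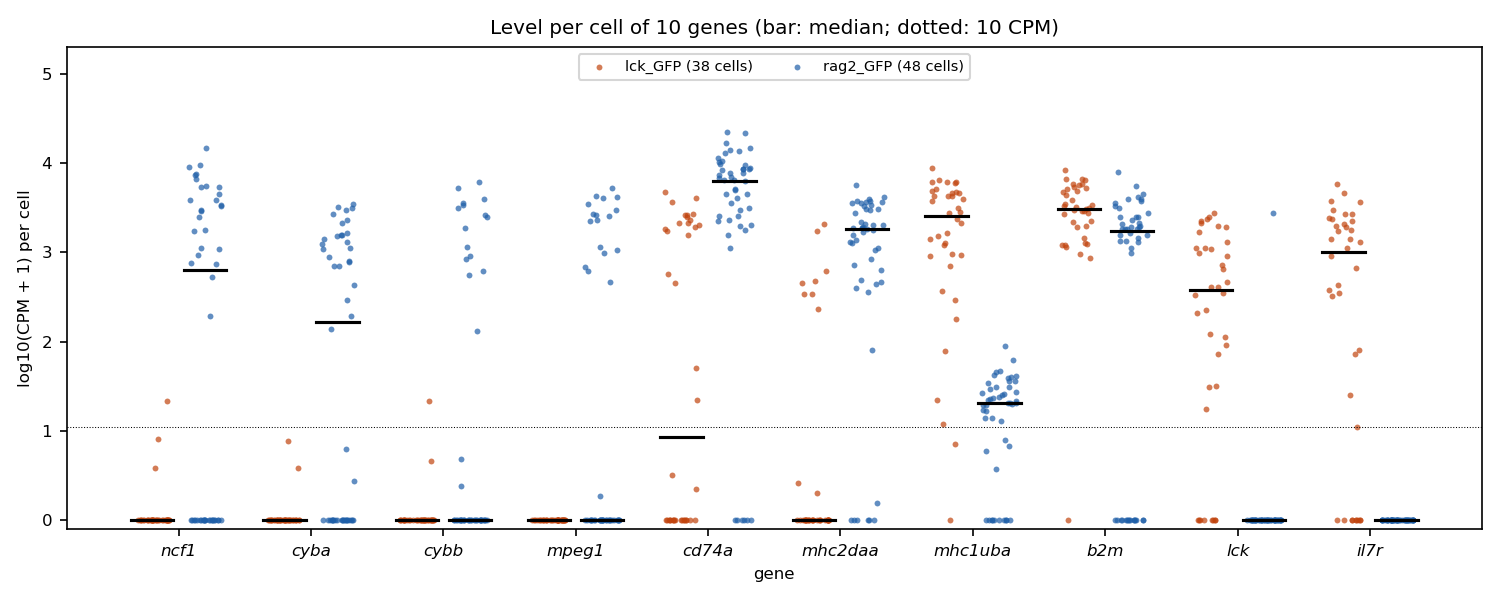
Each point is 1 cell, with log10(CPM + 1) on the y axis and 10 genes on the x axis. Red points on the left of each gene are lck_GFP and blue points on its right rag2_GFP, bars are medians, and the dotted line is 10 CPM. The gene mhc1uba is in most cells of both lines at levels far apart, and ncf1, cyba, cybb and mpeg1 stay at or below 20.7 CPM in lck_GFP.

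Class II antigen presentation genes that were called were on the rag2_GFP side. Of 11 measured class II genes, 2 were at least 4-fold higher in lck_GFP and 6 lower, beside 23.5 and 37.6% of all measured genes. By both measures 0 were higher and 3 lower, beside 0.895 and 1.03%. The list's median was -2.25 (log2) beside -0.58 for all measured genes. The invariant chain genes cd74a and cd74b, whose products guard class II molecules, were at 973 and 438 CPM in lck_GFP against 5599.8 and 2874 CPM in rag2_GFP. They were not absent from lck_GFP, where cd74a reached 10 CPM in 19 cells and cd74b in 13, against 42 rag2_GFP cells for each. The class II gene mhc2daa, which is outside the list, was in 8 lck_GFP cells and 41 rag2_GFP cells, and its neighbour in name mhc2dab was in 11 and 22 at 21.4 and 18.1 CPM. The factor gene ciita, which switches class II genes on, had no read in lck_GFP and was in 7 rag2_GFP cells.

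Class I genes held 1 called member, on the lck_GFP side, a number near that of all genes, of which 1.93% were called. Of 24 measured members, 1 was higher by both measures, the immunoproteasome gene psmb8 in 18 lck_GFP cells and 4 rag2_GFP cells, and 0 were lower. By fold 7 of the 24 were at least 4-fold higher in lck_GFP and 1 lower, beside 23.5 and 37.6% of all measured genes. By share 3 were higher and 0 lower, beside 1.44 and 1.16%. The list's median was 1.04 (log2) beside -0.58 for all measured genes, and its median share difference was 10.8 points beside 0.548 points. Among the 258 genes at 10 CPM in 50% or more of the cells of either line, a set chosen by detection, that difference was 9.65 points. The gene mhc1uba (ENSDARG00000075963) had a median of 2537 CPM per cell (0 to 8879) in lck_GFP and 19.5 CPM (0 to 89.1) in rag2_GFP. It reached 10 CPM in 36 lck_GFP cells and 34 rag2_GFP cells, so its share differed by 23.9 points. Its summed level was 3068 CPM (3046 to 3091) in lck_GFP and 21.6 CPM (19.99 to 23.3) in rag2_GFP, a 142-fold ratio. In the other lines mhc1uba was at 50.1 CPM (Runx123_GFP), 734 CPM (cd41_GFPlow), 581 CPM (mpx_EGFP) and 42.2 CPM (lck_GFP_rag1). The class I gene mhc1zba was in 34 lck_GFP cells and 33 rag2_GFP cells, at 2701 and 2226 CPM. Values of single class I genes are uncertain where similar copies share reads, and the part of such copies in the mhc1uba difference was not tested.

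Receptors for positioning and for cytokines were divided gene by gene. Among all measured genes, 0.895% were higher in lck_GFP by both measures and 1.03% lower. Of 22 measured chemokine receptor and trafficking genes, 3 were higher in lck_GFP by both measures (ccr9, ccr7 and the integrin gene itgae.2) and 2 lower. The lower ones were cxcr5, which guides B cells to follicles in mammals, with no read in lck_GFP and 16 rag2_GFP cells, and the lipid receptor gene s1pr4, in 2 and 17 cells. Of 27 cytokine and tumour necrosis factor receptor genes, il7r and il15ra were higher and il12rb2 lower, and the list's median was 1.69 (log2). The cytokine receptor genes il2rga and il2rb had no read in rag2_GFP and were in 9 and 7 lck_GFP cells, under the share limit. The receptor gene il12rb2, known in mammals from T and NK cells, was in 1 lck_GFP cell and 16 rag2_GFP cells, at 112 and 639 CPM.

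**Figure D5:**
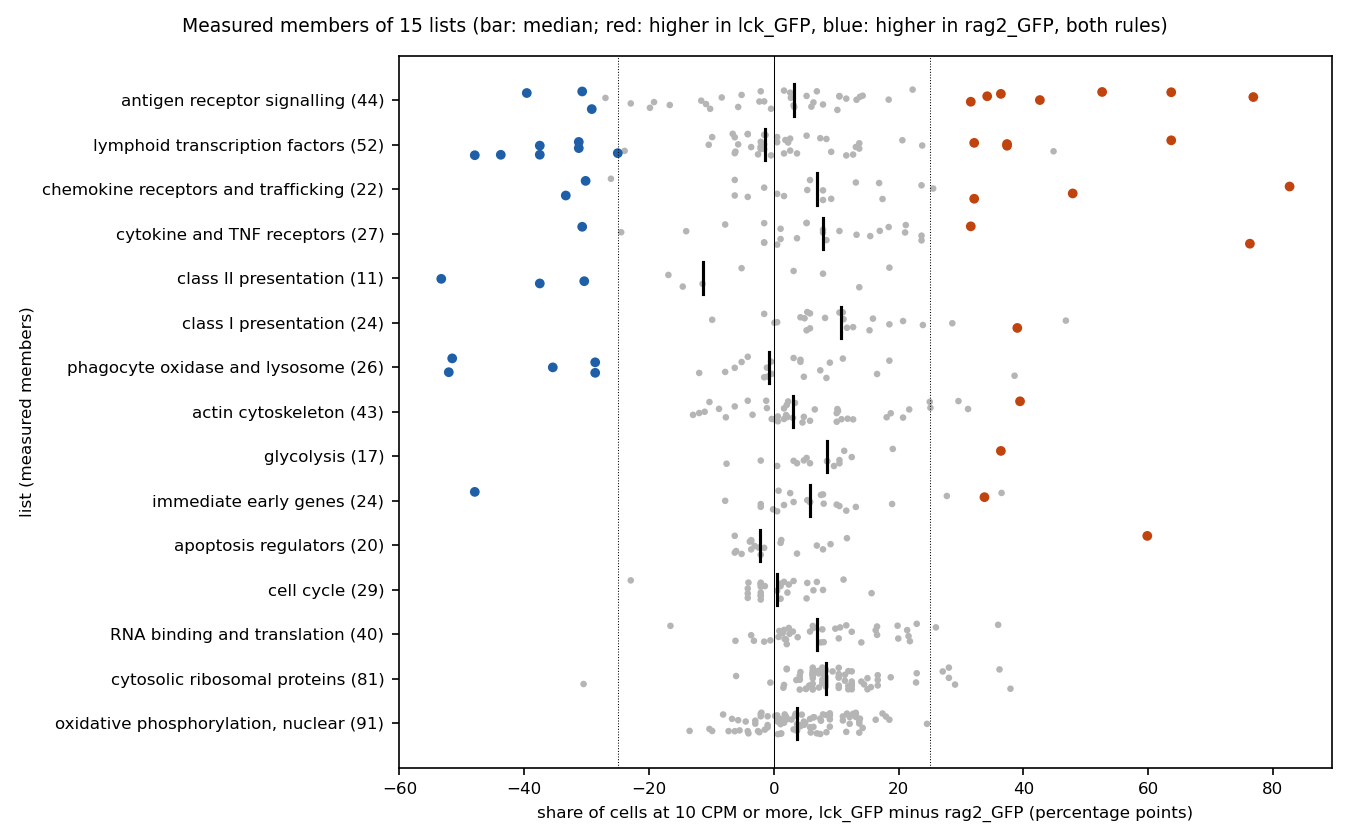
Each point is a measured member of 1 of 15 lists (y axis, with its number of members), placed by its share of cells at 10 CPM or more in lck_GFP minus that in rag2_GFP (x axis, percentage points). Red and blue mark members called by both measures, bars are medians, and dotted lines are at 25 points. Signalling, factor and receptor lists have red and blue members, class II and oxidase lists have blue ones, and the ribosomal protein list has a median of 8.33 points with no member called.

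Shared machinery differed little in level. In both lines alike, 151 genes were at 10 CPM or more in 50% or more of the cells, and 137 of them were within 2-fold, 74 being ribosomal protein genes. Among the 151, mhc1uba was at least 4-fold higher in lck_GFP and cd74a at least 4-fold lower. The 10 named by the lower of their levels were the actin gene actb2, the elongation factor gene eef1a1l1, the nuclear RNA malat1, rplp0, rpsa2, rpl3 and rps2 of the ribosome, the carrier gene slc25a5, tpt1 and the chaperone gene hsp90ab1. The actin gene actb2 had a median of 13502 CPM per cell (1433 to 45503) in lck_GFP and 23747 CPM (0.547 to 43993) in rag2_GFP, with ranges that overlap. Among the 258 genes at 10 CPM in 50% or more of the cells of at least 1 line, the median share difference was 9.65 points, in lck_GFP cells that also had more detected genes, and the part of detection in it was not tested.

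Housekeeping lists held few called genes, beside 1.93% called by both measures among all measured genes. Each list alone is too small for a count of 0 to stand far from that share. The lists together were not compared with it. Of 81 measured ribosomal protein genes 0 were at least 4-fold different, and their median log2 ratio was 0.50. Their share of reads per cell had a median of 18.6% in lck_GFP and 14.96% in rag2_GFP, and its part in other levels was not tested. Of 91 nuclear genes of oxidative phosphorylation, 29 cell cycle genes, 40 genes of RNA binding and translation and 110 solute carrier genes, 0 were called by both measures. Of 17 glycolysis genes, ldhb was higher in lck_GFP, in 17 cells against 4 rag2_GFP cells, while its relative ldha was in 8 lck_GFP cells and 6 rag2_GFP cells. Of 24 immediate early genes, dusp1 was higher in lck_GFP and klf2a lower, and of 20 apoptosis genes, mcl1a was higher. Of 10 measured recombination genes 0 were called by both measures, and rag1 and rag2, the recombinase genes, had no read in lck_GFP and were in 3 and 6 rag2_GFP cells.

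Genes whose symbols differ only in a last a or b, many of them duplicates, were compared within each pair. Of 222 such pairs with both genes measured, 29 were at least 4-fold different in opposite directions, 36 in the same direction, 99 in 1 gene and 58 in neither, where 23.5% of all measured genes were at least 4-fold higher and 37.6% lower. By both measures, 0 pairs were opposite, 3 went the same way (cd74, cd79 and cyb, of which cd79 and cyb are pairs of subunits and not duplicates) and 8 had 1 called gene. With 0.895% of all genes called higher and 1.03% lower, a count of 0 opposite pairs is near the background. Among the opposite 29, rhoaa, a small GTPase gene, was in 12 lck_GFP cells and 5 rag2_GFP cells, at 422 and 38.61 CPM, and rhoab in 4 and 10, at 45.3 and 269 CPM. The exchange factor gene cyth4a was in 10 lck_GFP cells and 1 rag2_GFP cell, and cyth4b in 2 and 7. Most of the others rested on 1 to 5 cells a gene.

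Part of each set was shared with lines outside the plate. Of the 79 genes higher in lck_GFP, 33 were in lck_GFP_rag1 at 25% or more of their lck_GFP level, 17 in Runx123_GFP, 16 in mpx_EGFP and 15 in cd41_GFPlow, and 36 were under that in all 4 of these lines. Of the 91 genes higher in rag2_GFP, 19 were in mpx_EGFP at 25% or more of their rag2_GFP level, 19 in cd41_GFPlow, 14 in lck_GFP_rag1 and 9 in Runx123_GFP, and 60 were under that in all 4. The oxidase gene ncf1 was at 1899.9 CPM in rag2_GFP and 1594 CPM in mpx_EGFP, while cd37 was at 2445 CPM in rag2_GFP and 3.93 CPM in mpx_EGFP. These lines were on other plates, so line and plate cannot be told apart for them. How many of all measured genes meet the same 25% rule in each line was not counted. The counts for the sets therefore have no background beside them, and whether they are high or low was not tested.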

How the data were processed

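Per the labels, cells were sorted by fluorescence and amplified with a changed form of Smart-seq2. The deposited table holds, for every Ensembl gene and cell, the counts of assigned reads, and the submitters' processing notes name STAR, Picard, featureCounts and the build GRCz10, without versions. A deposited mapping table gives, per the file headers, the percent of mapped read pairs and the PCR duplicate fraction of each well. No molecular identifiers are named, so reads are not independent molecules. Symbols came from a gene name table, which matched 19349 of 21876 identifiers. Genes without one took 5.88% of reads of the 86 cells.

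Counts were summed per line and scaled to CPM, and ratios were log2((CPM lck_GFP + 1)/(CPM rag2_GFP + 1)), so folds of low genes are understated. A gene was called at an absolute log2 ratio of 2, at a share difference of 25 points, or by both. Intervals are 95% exact Poisson or Clopper-Pearson, and a fold against 0 reads uses a floor of 3 reads in that line. The Poisson intervals treat reads as independent, which they are not, and so are too narrow. Steps were tested on simulated data. Scaling alternatives used edgeR 4.0.16 and DESeq2 1.42.0. Python 3.11.15, pandas 2.3.3 and scipy 1.17.1 were used.

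Members and lists were chosen with earlier results of these data known. Of 717 list entries, 492 matched exactly, 130 without a last letter or number, 11 by another symbol and 84 not at all, a scheme settled once symbols were known. Named genes are, per direction, the 12 with the largest share difference and the 12 with the largest ratio among genes called by both measures with a symbol and at least 50 CPM, the list members so called, lck, rag1, rag2, 10 abundant genes at like levels, and pairs called in opposite directions. Where several identifiers share a symbol (ccr9, mpeg1, capg and others), values are of the 1 called. Other genes given beside them, such as mhc1uba, mhc1zba, syk, cd63, ncf4, cd68, csf1rb, ikzf1, il2rga, il2rb and ciita, were chosen after their values were seen. Alternatives changed the pseudocount, the filters, the scaling, the depth, the cells used and both limits. Droplet data and the other 4 lines' own comparisons were not analysed here.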

Additional observations from a re-analysis of the deposited data

How the results depend on the processing

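Counts of genes by 4-fold level depended most on how low and rare genes were treated. With a pseudocount of 10 CPM, 1229 genes were at least 4-fold higher in lck_GFP and 2036 lower, with 10 gene pairs opposite and 17 the same way. With a filter of 50 CPM these were 1062, 1630, 9 and 13. When the cell with the highest CPM of a gene was dropped from each line, 2047 genes were lower and 18 pairs opposite. An 8-fold rule left 17 pairs opposite. A share limit of 35 points gave 64 genes higher and 56 lower by share, 46 and 54 by both measures, and 17 lower members of the function lists. The 8-fold rule gave 59 higher and 86 lower by both measures. The other alternatives, among them edgeR and DESeq2 scaling, thinning, cells with at least 700 genes and leaving out cells (the 3 rag2_GFP cells and lck_GFP replicate 38, both chosen after seeing the data), gave 74 to 105 genes higher and 86 to 103 lower by both measures. Of 77 named genes called by both measures, 51 to 77 were called under each alternative, the fewest with 35 points, and 0 changed direction. Thinning lost cd247, nfatc3 and irf8. Scaling moved the median log2 ratio of all measured genes to -0.47 (edgeR) and -0.52 (DESeq2), from -0.58. No paired analysis was possible because replicate numbers only follow accession order and no test between lines was made. With 1 sample per line, differences between animals cannot be told apart from differences between lines.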
